A study of Mus musculus with 14 samples.

Results

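The Bcl2 family, the caspases and the inhibitors of apoptosis are the genes that set and execute programmed cell death, and their RNA was compared here between mouse spleen cells enriched for follicular dendritic cells (FDC) and spleen cells depleted of them. Members were taken by name. A probe set, the group of short oligonucleotides that reports on 1 transcript, belonged if its annotation gave a single gene symbol that starts with Bcl2, Bnip, Birc, Casp, Ripk, Cidea or Cideb or is one of Bax, Bak1, Bid, Bik, Bbc3, Bad, Bok, Mcl1, Pmaip1, Xiap, Apaf1, Diablo, Cflar and Fadd. This gave 89 probe sets of 43 genes among 36701 probe sets of 15964 named genes. Of the 89, 52 were on array set A, 18 on set B and 19 on set C. The naming rule itself uses no measured value. Bax, Ripk1 and the Bcl2a1 genes are not analysed here.

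Per the labels, the depleted group (2 samples, called D1 and D2 here) and the enriched group (3 samples, E1, E2 and E3) were primary splenocytes of Mus musculus, from which total RNA was taken. Sets A and C held all 5 samples, whereas set B held D1, D2, E2 and E3 and had no array of E1, which makes 14 arrays. The sources used here do not give strain, age, sex, number of animals, any immunisation or the way the FDC were captured, nor whether the replicates were different animals. The p-values therefore speak only to variation among these samples, possibly of technical origin, and the same-numbered samples on sets A, B and C are not separate evidence.

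Proteins of the Bcl2 family meet at the outer membrane of mitochondria. Guardians such as Bcl2, Bcl2l1 (Bcl-xL) and Mcl1 hold back the pore formers Bax and Bak1, while the related Bok acts largely without their restraint, and BH3-only proteins such as Bcl2l11 (Bim) and Bid sense damage or withdrawal of survival factors and counter the guardians. Once the pore opens, cytochrome c joins Apaf1 to start Casp9, and the executioner caspases follow, with inhibitors of apoptosis such as Xiap as a brake. Death receptors use Fadd to gather Casp8, and Cflar (c-FLIP) competes with Casp8 there. In lymphocytes Bcl2, Mcl1 and Bcl2l11 are known to decide how long a cell survives.

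Both fractions were mixed cell populations, and markers of many cell types moved with the contrast. None of the tested markers of B cells (7 genes), T cells (8), NK cells (3) and neutrophils (5) rose, and 6, 8, 3 and 5 of them fell. All 9 endothelial, 8 macrophage and 5 FDC markers rose, as did 4 of 5 reticular fibroblast markers. Over all 12267 tested genes 19.3% rose and 14.5% fell. Tie1, Sox17, Cldn5, Cdh5, Tek, Marco, Cxcl13, Coch, Acta2, Col3a1 and Pdgfrb exceeded the filter described below on the enriched arrays alone. Cd3d, Cd3g, Il7r, Gzma, Klra7 and Ltf did so on the depleted arrays alone. The filter favoured the calls of these markers, so they are no separate support. On set A the summed intensity of 6 B cell markers was 20143 and 20329 on the depleted arrays and 6136 to 7934 on the enriched ones. For 8 T cell markers it was 6939 and 7374 against 2117 to 2315. For 2 NK cell markers it was 1771 and 2127 against 188 to 274, and for 5 neutrophil markers 5933 and 6638 against 2539 to 3159. Sums rose from 1450.3 and 1493 to between 16400 and 18510 for 7 endothelial markers, from 5709 and 6733 to between 15340 and 17883 for 8 macrophage markers, from 2140 and 2407 to between 17192 and 20606 for 5 FDC markers, and from 1014 and 1061 to between 3725 and 4210.1 for 4 reticular fibroblast markers. No tested marker was at 0 on any array. Their part in the differences below was not tested, and in such bulk RNA fewer cells of a type and less RNA per cell cannot be told apart. The ratio of 3' to 5' probe sets of Gapdh, a sign of RNA quality, also differed between the fractions. On set C every enriched array stood between 1.21 and 1.23, below D1 (1.41) and D2 (1.45). On set B the higher enriched array had 1.03, below D1 (1.11) and D2 (1.13), while on set A E1 and D1 both had 1.37. The same ratio of actin was lower on each enriched array of B and C than on either depleted one, with 1.17 as the highest enriched and 1.19 as the lowest depleted value on C, and overlapped on A. Its part in the members' differences was not tested. Median intensities were 244 to 279 on set A, 200.2 to 209 on set B and 123 to 126 on set C.

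Members moved in both directions. Tests covered the probe sets that exceeded, on 2 or more arrays, the 40th percentile of the array, and a probe set passed at a limma adjusted p under 0.05. Of the 52 members of set A, 38 were tested and 17 passed, of which 8 rose and 9 fell. Of all 7895 tested probe sets of set A 41.0% passed, 23.1% as rises and 17.9% as falls. On set B 11 of 18 were tested, 2 rose and 2 fell, against 19.4% and 17.0% of 7786 (36.5% in either direction). On set C 11 of 19 were tested, 2 rose and 4 fell, against 9.50% and 8.73% of 7358 (18.2% in either direction). The 4 fallers on C were a pair of Bcl2 probe sets and 1 each of Birc6 and Bnip5. One of the Bcl2 probe sets and that of Birc6 had exceeded the percentile on the depleted arrays alone, so nothing is read from the share on C. The median log2 fold change of the members was 0.01 on A, 0.10 on B and -0.06 on C, beside 0.02, 0.001 and 0.02 over all tested probe sets. The 29 members that were not tested lay below the 40th percentile on every array. A further 8 were tested through exactly 2 arrays, and 5 of these passed, 4 as falls and 1 as a rise. The filter favours a difference at a member tested through its higher group alone, so its call is no separate support. Such a member need not pass, and Bcl2l10 did not.

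With 1 probe set standing for each gene, 37 of 43 genes were tested, of which 6 rose, 9 fell and 22 did not pass. This was the brightest tested probe set of a set, from the set where its level ranked highest among all probe sets. It is called the brightest below, although for Bcl2 and Mcl1 higher intensities were on set A. Over all 12267 tested genes 33.8% passed, 19.3% as rises and 14.5% as falls. The 6 risers were Bok, Mcl1, Casp4, Bcl2l2, Bcl2l11 and Bcl2l1. The 9 fallers were Bcl2, Casp8, Birc6, Bid, Birc3, Casp8ap2, Casp2, Bnip5 and Fadd. A count of member probe sets whose groups did not overlap came to 10 higher and 14 lower in the enriched arrays of set A (all tested, 34.7% and 28.6%), 5 and 3 on set B (34.4% and 33.3%) and 2 and 5 on set C (27.1% and 20.5%).

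Other scalings moved the balance on set A. With each array scaled to the median, 5 members rose and 10 fell, and with quantile normalization 6 rose and 11 fell. Over all tested probe sets of set A the split of 1824 rises and 1416 falls became 1461 and 1966 with the first and 1447 and 2042 with the second. Leaving out E3 left 1 riser on set B, leaving out D1 or D2 left 2 fallers on set C, and leaving out D2 left 1 riser on set C.

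**Figure D1:**
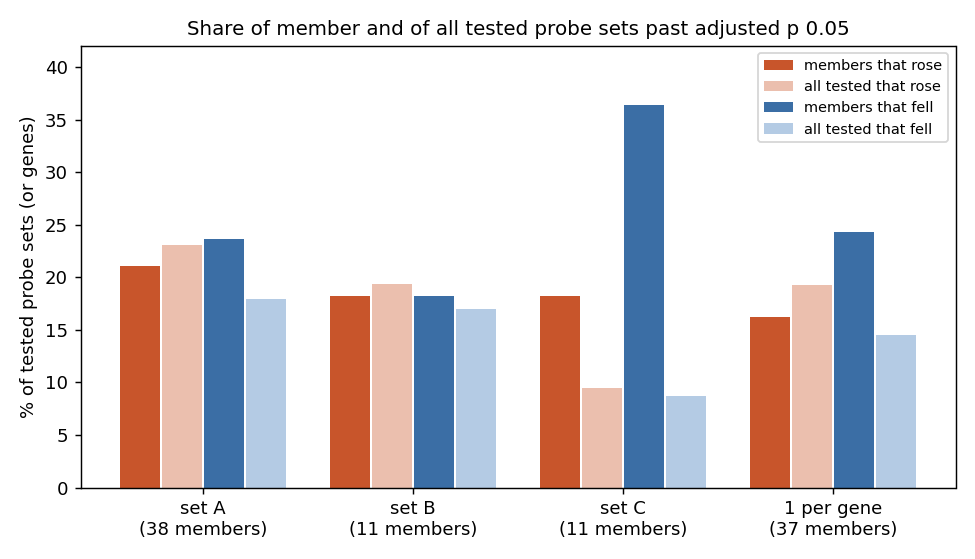
Share of tested probe sets, in %, that passed at a limma adjusted p under 0.05, for members (dark bars) and for all tested probe sets (light bars) of each array set, and with 1 probe set per gene. On sets A and B the bars of members and of all probe sets lie near each other, while on set C the members' bar for falls stands for 4 of 11 probe sets.

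The guardians of the family moved in opposite directions. Bcl2 fell, whereas Mcl1, Bcl2l2 (Bcl-w) and Bcl2l1 rose, and Bcl2l10 did not pass. Bcl2 is the founding member and a survival factor of resting lymphocytes, and Mcl1 is a short-lived guardian needed by many blood cells. The RefSeq sequences just before the start sites of Mcl1 and Bcl2 are shown because these genes moved furthest apart within the guardians, and those of Birc3 and Cflar because both are known targets of NF-kB and come up below. Each stretch holds the 250 bases before the start in build GRCm38.p6, written in the direction of the gene. The stretches are chr3:95658471-95658720, plus strand, for Mcl1, chr1:106714291-106714540, minus strand, for Bcl2, chr9:7873171-7873420, minus strand, for Birc3 and chr1:58711241-58711490, plus strand, for Cflar. Capitals mark matches on either strand to GGG and CC held apart by 5 bases of any kind, a loose NF-kB pattern.
Mcl1: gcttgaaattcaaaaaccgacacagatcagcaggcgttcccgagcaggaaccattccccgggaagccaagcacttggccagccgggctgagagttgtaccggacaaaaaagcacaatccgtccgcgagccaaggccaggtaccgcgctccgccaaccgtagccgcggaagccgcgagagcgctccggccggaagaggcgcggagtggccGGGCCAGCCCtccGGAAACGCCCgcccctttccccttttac
Bcl2: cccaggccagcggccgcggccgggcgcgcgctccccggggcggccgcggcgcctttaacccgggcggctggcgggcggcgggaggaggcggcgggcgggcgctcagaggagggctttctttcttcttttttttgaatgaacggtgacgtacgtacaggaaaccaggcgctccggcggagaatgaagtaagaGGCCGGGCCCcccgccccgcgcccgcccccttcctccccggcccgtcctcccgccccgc
Birc3: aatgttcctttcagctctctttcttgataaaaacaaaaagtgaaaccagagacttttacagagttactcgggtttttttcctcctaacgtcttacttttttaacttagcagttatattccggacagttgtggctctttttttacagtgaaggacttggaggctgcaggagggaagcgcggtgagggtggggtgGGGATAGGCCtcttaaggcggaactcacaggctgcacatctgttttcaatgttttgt
Cflar: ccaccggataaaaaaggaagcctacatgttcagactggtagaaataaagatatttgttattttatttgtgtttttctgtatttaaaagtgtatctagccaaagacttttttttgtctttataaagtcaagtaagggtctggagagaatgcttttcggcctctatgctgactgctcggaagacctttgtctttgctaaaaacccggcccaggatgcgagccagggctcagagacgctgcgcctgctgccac

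The loose NF-kB pattern occurred 2 times before Mcl1, 1 time before Bcl2, 1 time before Birc3 and 0 times before Cflar. It is common, being found in 45.8% of all 32851 RefSeq windows of this length and in 32 of 50 windows of the 38 member genes in that table. The GC box GGGCGG, the pattern of Sp1, occurred 7 times before Bcl2, 1 time before Mcl1, where it overlaps the second marked match, and 0 times before Birc3 and Cflar. It was in 32.7% of all windows and 30 of the members' 50. CCAAT was in 33.9% of all windows and in 12 of 50, and TATAAA in 12.4% and in 4 of 50, among them Cflar with 2 overlapping matches. G and C made up 74.8% of the stretch before Bcl2, 64.4% before Mcl1, 43.6% before Birc3 and 42.8% before Cflar, and the median over all windows was 52.4%. These are matches of letters, and the arrays did not measure binding.

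Bcl2 had 6 tested probe sets, of which 5 fell and 1 did not pass. The one that stands for the gene, on set C, read 494 and 472 on D1 and D2 and 165, 203 and 186 on E1, E2 and E3. The depleted arrays lay far above every enriched one. The log2 fold change was -1.18 ± 0.071 (SE), a 2.26-fold fall (limma, adjusted p = 1.08e-05). A second probe set on C read 134 and 164 against 80.8, 78.2 and 79.9, a 1.52-fold fall. On set B Bcl2 read 521 and 546 against 253 and 278 on E2 and E3, a 1.77-fold fall. On set A one probe set read 436 and 380.5 against 101, 133 and 128, a 2.38-fold fall, and another 957 and 858 against 607, 574 and 591, a 1.47-fold fall. The third on set A read 542 on both depleted arrays and 540.0, 495 and 563 on the enriched ones. Its groups overlapped and its log2 fold change was -0.02 ± 0.075 (SE), with adjusted p = 0.843. The second probe set on C and the first on A were tested through the depleted arrays alone, so the filter favoured their falls. That leaves 3 falls among the other 4. The annotation gives the same sequence accession to all 3 probe sets of Bcl2 on set A, so the disagreement lies within 1 annotated sequence record. Fold changes are on log2(intensity + pseudocount), where the pseudocount was 88.5 for A, 81.2 for B and 53.1 for C, which understates the change of dim probe sets.

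Mcl1 rose on both sets that carry it. On set C it read 889 and 975 on the depleted arrays and 1469, 1508 and 1519 on the enriched ones. The groups lay far apart, with a log2 fold change of 0.66 ± 0.057 (SE), a 1.58-fold rise (limma, adjusted p = 8.24e-05). On set A it read 1117 and 1243 against 1934, 2414 and 2197, a 1.79-fold rise with adjusted p = 0.000343.

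Bcl2l2, a guardian expressed in many tissues, read 274 and 248 on the depleted and 395, 349 and 402 on the enriched arrays of set A. The groups did not overlap, and it rose 1.35-fold (log2 fold change 0.43 ± 0.079 SE, limma adjusted p = 0.00279). Its probe set on set C was too dim to test, at 49.7 to 58.7 on the 5 arrays.

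Bcl2l1, which also protects red cell precursors and platelets, read 1091 on D1 and 805 on D2 against 1163, 1272 and 1229.9. D1 lay closer to E1 than to D2. The rise of 1.28-fold (log2 fold change 0.35 ± 0.119 SE) passed narrowly, with adjusted p = 0.0458. Without D2 it was 0.15 (adjusted p = 0.438), and without E2 or E3 the adjusted p was 0.0955 or 0.106. It also missed the threshold after median scaling (0.136), with quantile normalization (0.109), with no filter (0.0526) or with adjustment over all sets (0.0552). A second Bcl2l1 probe set stood at 0.11 and missed the threshold too.

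Bcl2l10, a guardian known from oocytes, read 186 and 209 against 177, 156 and 181 and did not pass, with a log2 fold change of -0.14 ± 0.077 (SE) and adjusted p = 0.195. It was tested through the depleted arrays alone. Its other probe set had no value on E2 and was too dim to test.

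Among the pore formers Bok rose and Bak1 did not pass. Bok, which can open mitochondria without help from BH3-only proteins, read 438 and 428 on the depleted and 919, 863 and 908 on the enriched arrays. Each group was tight, at 433 ± 7.09 (SD, n = 2) and 896 ± 29.7 (SD, n = 3). The log2 fold change was 0.92 ± 0.071 (SE), a 1.89-fold rise and the largest of the 37 genes at their brightest probe sets (limma, adjusted p = 1.92e-05). Bak1, a constant resident of the mitochondrial membrane, read 476 and 453 against 468, 472 and 431. Its log2 fold change of -0.02 ± 0.072 (SE) had adjusted p = 0.849, and it was 0.01 without D1 and without E3.

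**Figure D2:**
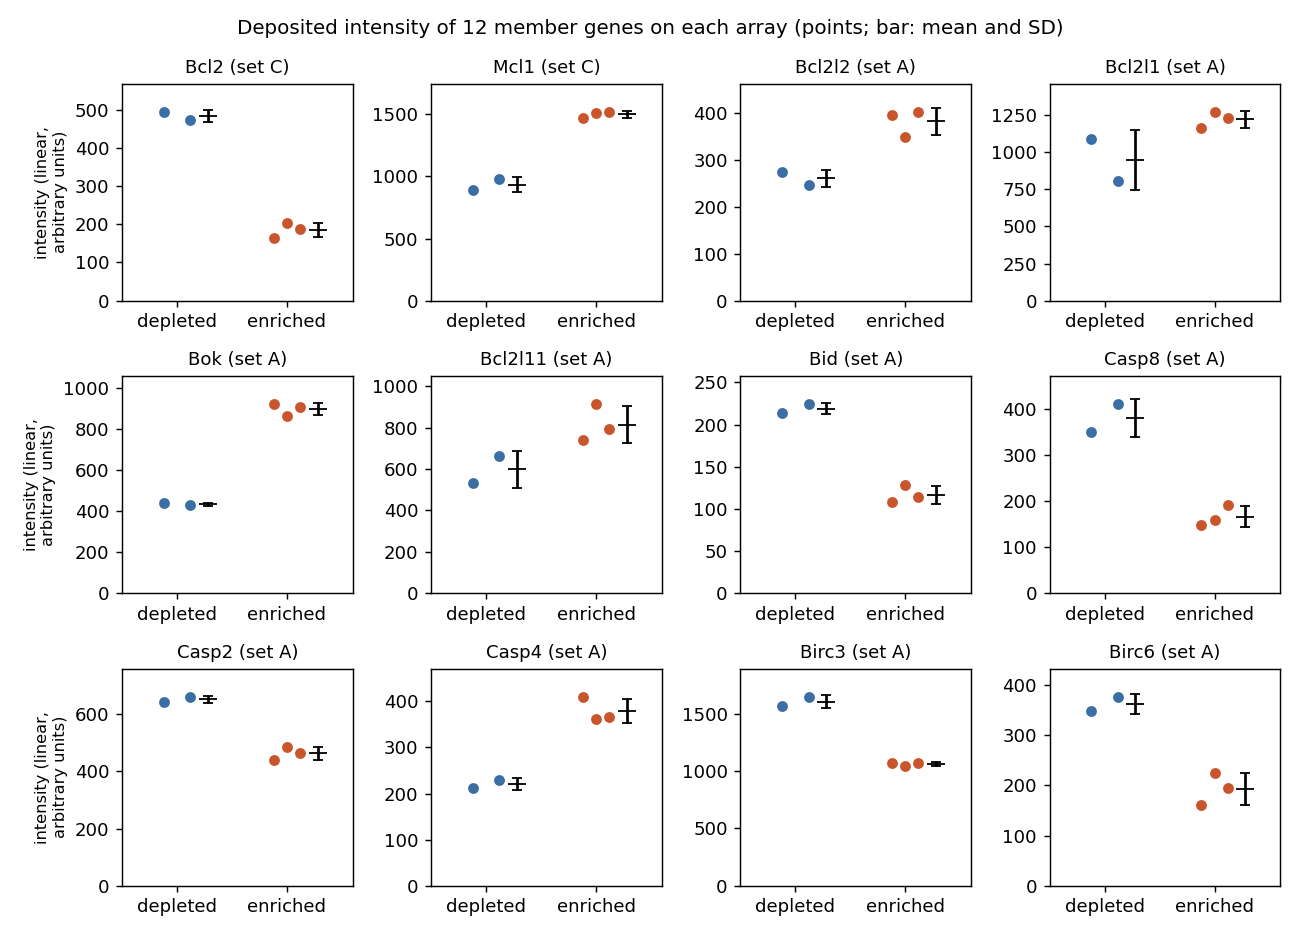
Deposited intensity, on a linear axis from 0, of 12 member genes on each depleted (blue) and enriched (orange) array, with the mean and SD of each group in black. Bok, Mcl1, Casp4, Bcl2l2, Bcl2l11 and Bcl2l1 lie higher in every enriched array, and Bcl2, Bid, Casp8, Casp2, Birc3 and Birc6 lie lower in every one.

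Of 6 BH3-only genes 1 rose, 1 fell and 4 did not pass. Bid links death receptors to mitochondria once Casp8 has cut it, and it read 214 and 224 on the depleted and 108, 128 and 114 on the enriched arrays. It fell (log2 fold change -0.59 ± 0.072 SE, limma adjusted p = 0.000304), but only the depleted arrays exceeded the filter, which favoured a fall. Without D1 or D2 it was not tested. Its second probe set, on set B, was too dim to test.

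Bcl2l11, the BH3-only protein that removes autoreactive lymphocytes, had 3 tested probe sets. The brightest read 535 and 662 against 738, 912 and 794, a 1.32-fold rise with adjusted p = 0.0218. Another read 286 and 263 against 354, 349 and 327, a 1.19-fold rise with adjusted p = 0.0207. The groups overlapped at the third, with 663 and 607 against 685, 686 and 656 and adjusted p = 0.441. The call of the brightest probe set was lost without D1 (adjusted p = 0.215), without E3 (0.0505) and with scaling to the median array (0.0533).

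Bad, which growth factor signals keep inactive, read 267 and 253 against 252, 239.9 and 249 at its tested probe set, with a log2 fold change of -0.06 ± 0.065 (SE). Its other probe set was too dim to test and read 108 and 104 on the depleted and 195, 175 and 172 on the enriched arrays. The enriched arrays were thus higher at one Bad probe set and slightly lower at the other. Bik read 370.3 and 388 against 408, 432 and 472, with groups that did not overlap and a log2 fold change of 0.17 ± 0.077 (SE) that did not pass (adjusted p = 0.12).

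The p53 targets Bbc3 (Puma) and Pmaip1 (Noxa) did not pass. Bbc3 on set C read 118 and 125 against 123, 125 and 126, with a log2 fold change of 0.02 ± 0.045 (SE). Pmaip1 on set B read 588 and 646 against 676 on E2 and 501 on E3. The enriched arrays lay on either side of the depleted ones. Its log2 fold change was -0.07 ± 0.111 (SE), 0.12 without E3 and -0.26 without E2, the last with adjusted p = 0.0165 where E3 as the lone enriched array was given the spread of the depleted ones.

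The Bnip and remaining Bcl2-like genes, 5 tested in all beside Bnip5, did not pass at their brightest probe set, where the log2 fold change ran from -0.12 to 0.15. They were Bnip1, Bnip2, Bcl2l12, Bcl2l13 and Bcl2l14. Bnip2 differed between probe sets. Its brightest had no value on E2 and read 449 and 477 against 623 on E1 and 439 on E3. A second on set A rose 1.39-fold, from 341 and 327 to 454, 540.2 and 505 (limma, adjusted p = 0.00195). Bnip3, a mitophagy receptor induced by low oxygen, was too dim to test on every set, and read 66.0 and 77.3 against 88.6, 101 and 114 on set A. On set C Bnip3 averaged 34.9 ± 7.11 (SD, n = 2) against 59.4 ± 3.48 (SD, n = 3), and on set B, where no array passed 10.2, the enriched arrays were the lower ones. Bnip5, matched by its name alone, fell 1.18-fold on set C, from 198 and 197 to 156, 158 and 162 (adjusted p = 0.00675).

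**Figure D3:**
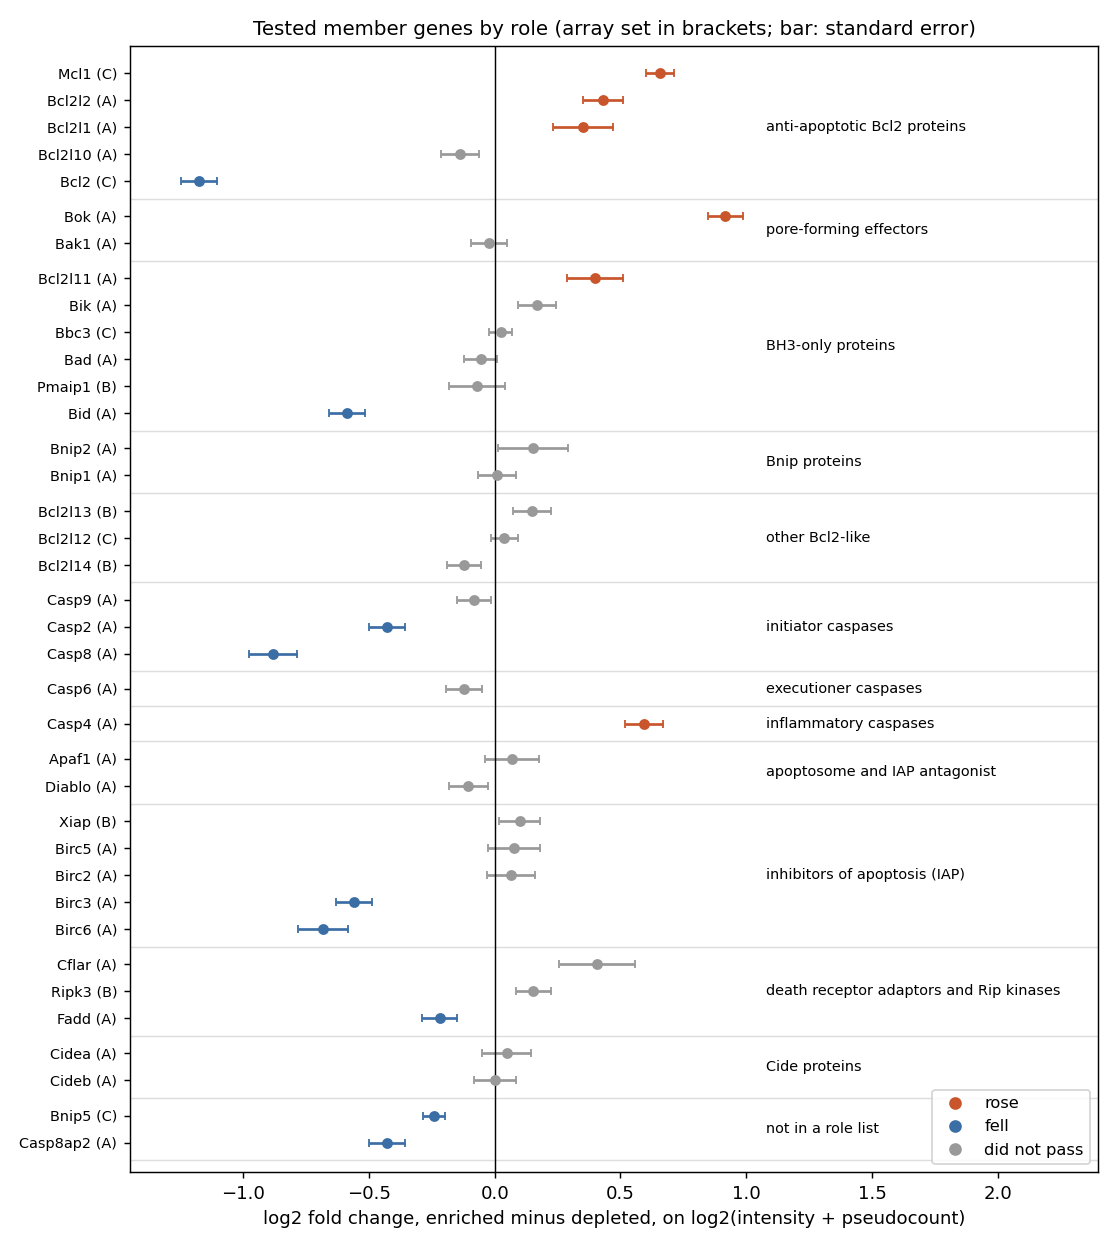
Log2 fold change, enriched minus depleted, with its standard error for the 37 tested member genes at the probe set that stands for each, grouped by role, on log2(intensity + pseudocount). Orange genes rose, blue genes fell and grey genes did not pass at a limma adjusted p under 0.05; Bcl2 at -1.18 and Bok at 0.92 lie at the ends.

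Of the initiator caspases Casp8 and Casp2 fell and Casp9 did not pass. Casp8, the caspase of death receptors, read 350.1 and 409 on the depleted and 148, 159 and 192 on the enriched arrays. E1 and E2 lay below their filter thresholds of 199 and 197, and E3 at 191.6 lay just above its 190.5. The log2 fold change of -0.88 ± 0.095 (SE) was a 1.84-fold fall (limma, adjusted p = 0.000142). Casp8ap2, a nuclear protein that binds Casp8 and is itself no caspase, fell 1.35-fold, from 357 and 337 to 225, 255 and 227, and its second probe set was too dim to test.

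Casp2, which responds to DNA damage and to extra centrosomes, read 644 and 661 against 439.5, 485 and 465, a 1.34-fold fall with adjusted p = 0.00172. A second Casp2 probe set, with 196 and 188 against 209.8, 156 and 170.2, overlapped between the groups (adjusted p = 0.574). Casp9, the caspase of the apoptosome, read 277 and 287 against 248, 273 and 263. Every enriched array lay below both depleted arrays at all 4 of its probe sets, including 2 that were too dim to test. So did 28.6% of all tested probe sets of set A, and the 4 share the same samples and are not separate evidence. The log2 fold changes of the tested pair were -0.08 and -0.13, with adjusted p = 0.374 and 0.241.

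Casp6 is an executioner caspase that cuts nuclear lamins. It read 305 and 324 on the depleted and 266, 285 and 295 on the enriched arrays, and did not pass in the deposited scale (log2 fold change -0.12 ± 0.07 SE, adjusted p = 0.211). With scaling to the median array and with quantile normalization it passed as a fall, at -0.20 (adjusted p = 0.0497) and -0.22 (0.0432).

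Casp4, the mouse caspase also known as caspase 11 that senses bacterial lipopolysaccharide inside cells, rose. It read 212 and 230.4 on the depleted and 409.6, 361 and 366 on the enriched arrays, a 1.51-fold rise (log2 fold change 0.59 ± 0.076 SE, limma adjusted p = 0.000362). Its gene neighbours in assembly GRCm38.p6, Casp1 and Casp12, were too dim to test and differed in direction. Casp1, which matures interleukin 1 beta, read 148 and 159.8 against 111, 116 and 113. Casp12 read 8.11 and 9.56 against 27.7, 38.1 and 38.5. The enriched arrays were thus lower for Casp1 and higher for Casp4 and Casp12, within a row of 3 genes with no other protein-coding gene between them. The filter threshold on set A was 176 to 199, so Casp12 in particular lay far below what was tested. Casp14, a caspase of skin, was too dim to test at 104 to 122.

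Apaf1, the scaffold of the apoptosome, read 214 and 217 on the depleted arrays and 186 on E1, 254 on E2 and 257 on E3. E1 lay below and the other enriched arrays above the depleted pair. The log2 fold change was 0.07 ± 0.107 (SE), with adjusted p = 0.654, and 0.18 without E1 (adjusted p = 0.0333). It turned to -0.001 with scaling to the median array and -0.03 with quantile normalization. Diablo (Smac), which releases caspases from Xiap, read 249 and 283 against 258, 232 and 234 and did not pass.

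Of 5 tested inhibitors of apoptosis Birc3 and Birc6 fell, and Birc2, Birc5 and Xiap did not pass. Birc3 (cIAP2), a ubiquitin ligase of TNF receptor signalling, read 1567 and 1648 on the depleted and 1070.5, 1045 and 1073 on the enriched arrays of set A, a 1.47-fold fall (limma, adjusted p = 0.000406). On set B it read 624 and 677 against 221 and 227 on E2 and E3, a 2.39-fold fall with adjusted p = 2.29e-07. The groups lay far apart at both probe sets, though the sizes differed, and another probe set on set C was too dim to test.

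Birc2 (cIAP1), the direct neighbour of Birc3 in the genome, read 722 and 725 against 682, 851 and 756. The enriched arrays lay on both sides of the depleted ones, and its log2 fold change of 0.06 ± 0.095 (SE) did not pass (adjusted p = 0.646). The value was -0.01 without E2, -0.03 with scaling to the median array and -0.05 with quantile normalization.

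Birc6 (Bruce), a very large protein that ubiquitinates caspases and Diablo, fell on set A and was lower on set C too. On set A it read 349 and 377 against 162, 225 and 194, a 1.61-fold fall with adjusted p = 0.000801. On set C it read 149.6 and 146 against 95.4, 93.9 and 95.9, a 1.36-fold fall with adjusted p = 0.000196. There it exceeded the filter on the depleted arrays alone, which favoured a fall.

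Xiap, the direct inhibitor of active caspases, had a probe set on each of B and C that was tested. On set B it read 656 and 695 against 671 and 794, with adjusted p = 0.387. On set C, where E1 was measured too, it read 189.8 and 188 against 228, 277 and 278, a 1.29-fold rise with adjusted p = 0.0102. E1 was thus the lowest of its group on C and was missing on B. The 3 Xiap probe sets on set A were too dim to test.

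Birc5 (survivin), which is made in dividing cells, read 253 and 261 on the depleted and 329.8 on E1, 258 on E2 and 245 on E3. E1 alone stood above the rest, and the log2 fold change was 0.08 ± 0.102 (SE) with adjusted p = 0.601. It was -0.02 without E1 and -0.02 with quantile normalization. Of the 4 tested proliferation markers Mki67, Cdk1 and Top2a were also highest on E1, whereas Ccnb2 was lowest there, at 995 against 1016 to 1070.1. Mki67 read 494 on E1 and 342 to 392 on the other 4 arrays, and Cdk1 349.8 on E1 and 239.6 to 254 on the others. None of these markers passed, and their summed intensity was 1786 to 2056 on the enriched arrays and 1871 and 1881 on the depleted ones.

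In the death receptor branch Fadd fell slightly. This adaptor read 485 and 443 on the depleted and 387, 384 and 387 on the enriched arrays, a 1.16-fold fall with adjusted p = 0.0344. The call was not stable. The adjusted p was 0.289 without D1, 0.0852 without D2, 0.0636 without E2, 0.0899 without E3 and 0.0515 with no filter.

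Cflar, the brake on Casp8, had 4 tested probe sets that disagreed. The brightest, on set A, read 500.3 and 539 on the depleted arrays and 550.1 on E1, 848 on E2 and 787 on E3. E1 thus lay next to D2, and the log2 fold change of 0.41 ± 0.152 (SE) did not pass (adjusted p = 0.0656), while without E1 it was 0.57 (adjusted p = 0.00038). On set B, which has no array of E1, one probe set rose 2.57-fold, from 146 and 139 to 474 and 514 (adjusted p = 1.09e-07). It exceeded the filter on the enriched arrays alone, which favoured a rise. Another on set B rose 1.25-fold, from 324 and 284 to 397 and 402 (adjusted p = 0.00405). On set C the groups overlapped, with 146 and 156 against 144, 152 and 135 and adjusted p = 0.538. The larger rise on set B and the flat probe set on C are annotated to the same gene. Cflar lies next to Casp8 in assembly GRCm38.p6, and the pair differed in that Casp8 fell on set A and Cflar rose at 2 of its 4 probe sets.

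Ripk3, the kinase of necroptosis, read 616 and 568 on the depleted and 642 and 694 on the enriched arrays of set B. The groups did not overlap, but the log2 fold change of 0.15 ± 0.07 (SE) did not pass (adjusted p = 0.12). Ripk4, a kinase of epidermal cells, was too dim to test at 111 to 134. The genes of the Cide proteins, which act on lipid droplets, stood at log2 fold changes of 0.05 for Cidea and 0.001 for Cideb and were not called.

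Of the 37 genes, 14 had more than 1 tested probe set. All of them passed in the same direction for Birc3, Birc6 and Mcl1. For 7 genes (Bcl2, Bcl2l1, Bcl2l11, Bnip2, Casp2, Cflar and Xiap) some passed and others did not, and for 4 (Bcl2l12, Bcl2l13, Bcl2l14 and Casp9) none passed. No gene had probe sets that passed in opposite directions. The choice of the brightest probe set thus left Bnip2, Cflar and Xiap uncalled although another of their probe sets rose.

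**Figure D4:**
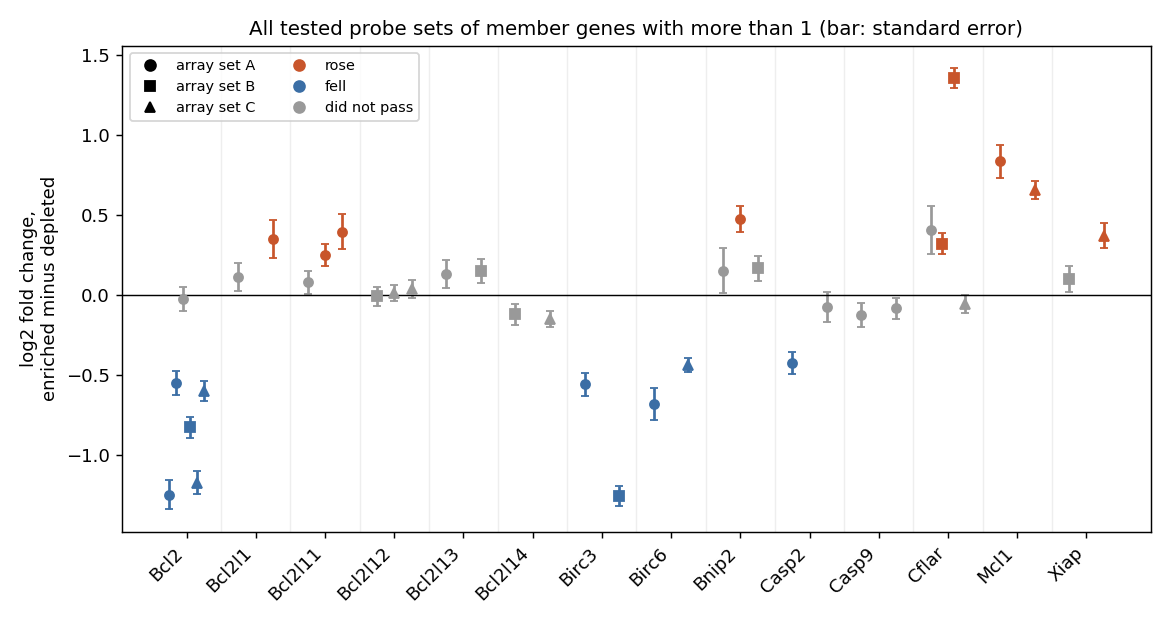
Log2 fold change with its standard error for every tested probe set of the 14 member genes that have more than 1, by array set (symbol) and call (colour). Bcl2 shows 5 probe sets that fell and 1 at -0.02, and the probe sets of Cflar range from -0.06 to 1.36.

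The spread within groups differed by set. On set A the median coefficient of variation of the tested members was 4.20% over the depleted and 7.71% over the enriched arrays, beside 3.98% and 7.82% over all tested probe sets. On set B it was higher for members, at 5.70% and 5.64% beside 3.86% and 4.17%. On set C it was 4.16% and 2.81%, beside 4.62% and 4.58%. The smallest change that passed among members was 0.22 on the log2 scale on A, 0.32 on B and 0.24 on C. These are not detection limits. Outside the members Pycard passed on set B at -0.19 (limma, adjusted p = 0.032), while Cflar at 0.41 on set A did not pass.

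Other genes of cell death outside the naming rule also moved both ways. Of 7 tested death receptor genes 3 rose, 2 fell and 2 did not pass, where over all 12267 tested genes 19.3% rose and 14.5% fell. Tnf rose 2.62-fold and its receptor gene Tnfrsf1a 1.95-fold, whereas the Fas ligand gene Fasl, which killer lymphocytes express, fell 1.79-fold and the adaptor gene Tradd 1.65-fold. Fasl was tested through the depleted arrays alone, so the filter favoured its fall. Tradd read 2092 and 2887 on the depleted and 1891, 1248 and 1293 on the enriched arrays (limma, adjusted p = 0.0164). D1 lay closer to E1 than to D2 there. Of 25 other genes, set against the same shares, 4 rose, 8 fell and 13 did not pass. Septin4, whose product Arts binds Xiap, rose 3.56-fold, from 51.0 and 49.2 to 352, 421 and 446. It was tested through the enriched arrays alone, so the filter favoured its rise. The inflammasome sensor gene Nlrp3 rose 1.59-fold and the caspase-1 substrate gene Il18 1.52-fold. Naip5 rose too, with a log2 fold change of 0.207. Pycard fell, at -0.19 on the same scale. Il1b (-0.436), Gsdmd (-0.111) and Naip6 (-0.0804) did not pass. These genes thus did not move in 1 direction. The DNA fragmentation factor genes Dffa and Dffb fell by 0.53 and 0.59 on the log2 scale, and the cytotoxic granule genes Gzmb and Prf1 fell 1.45- and 1.40-fold. Pdcd4, a translation inhibitor, fell 1.94-fold. The BH3-only genes Bmf and Hrk had log2 fold changes of -0.01 and -0.01 and did not pass. The median log2 fold change was 0.03 over the 7 death receptor genes and -0.01 over the 25 others, beside 0.02 over all 12267 tested genes.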

How the data were processed

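RNA of 2 FDC-depleted and 3 FDC-enriched spleen cell samples was measured on 14 oligonucleotide arrays of 3 sets. The authors deposited 1 linear intensity per probe set and array; the sources used here do not give the summary method or the scaling. The deposited tables hold no negative value, and E2 on set A had none for 893 probe sets, 3 of them members. Within a set the arrays' trimmed means differed by at most 1.08-fold, so the deposited scale was kept. On sets A and B the trimmed mean was higher on every enriched array than on either depleted one.

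Probe sets were named from the platform annotation, with symbols updated through Entrez identifiers to the GRCm38.p6 gene table, and 4 that list several genes, of Bcl2a1 copies or of Bnip3l and its pseudogene, were left out. Each set was fitted alone over all tested probe sets with limma 3.58.1 (trended eBayes, R 4.3.3) on log2(intensity + 20th percentile), two-sided, with Benjamini-Hochberg adjustment within the set. An exact permutation test of 1 gene could not go below 0.1 with 2 against 3 arrays, or 0.333 with 2 against 2. The fit was tested on simulated data.

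A gene was represented by its brightest tested probe set of a set, from the set where that ranked highest in percentile of level, not in raw intensity. Named in full were passing genes whose groups did not overlap (up to 15 a direction) and a list of core genes. The members and all gene lists were chosen with earlier results of these data known. Alternatives were other scalings, a pseudocount at the 10th percentile, no filter, no variance trend, joint adjustment, original symbols, the replicate number as a block, and leaving out each sample.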

Additional observations from a re-analysis of the deposited data

How the results depend on the processing

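Counts of member probe sets that passed on sets A, B and C kept within 1.5 times the reported count except for 5 rises on set A with scaling to the median array and in the cases below. Leaving out 1 sample gave 6 to 12 rises and 6 to 9 falls on A, 1 to 3 and 2 to 3 on B, and 1 to 2 and 2 to 4 on C. Samples D1 and E1, D2 and E2 share only a number in the labels. Their deviations from the group means correlated at 0.03 and 0.06 on A, at 0.15 for the single such pair on B and at -0.31 and -0.15 on C. With 2 depleted arrays the deviations of D1 and D2 mirror each other, so these correlations cannot decide whether the numbers pair samples. The labels state no pairing, and none was used in the main fit. Replicate 3 has no depleted sample, so a block on the replicate number takes E3 out of the contrast. Its log2 fold changes for the named genes were therefore those of the fit without E3. With the replicate block, 8 members rose and 8 fell on A and 2 rose and 3 fell on C. Fadd (adjusted p = 0.111), Bcl2l1 (0.06) and Bnip5 (0.0681) then did not pass and Cflar did (0.041). On set B the groups share 1 number, so no block was fitted. Signs turned for 8 genes that did not pass as reported, namely Apaf1 (-0.000722 with median scaling, -0.0325 with quantile normalization), Birc2 (-0.026, -0.0455 and, without E2, -0.00978), Birc5 (-0.0159 with quantile normalization, -0.0229 without E1), Bak1 (0.00842 without D1, 0.0133 without E3 and with the block), Xiap (-0.00927 without E3), Pmaip1 (0.119 without E3), Bbc3 (-0.00364 without D1) and Cflar (-0.0569 at its set C probe set). Leaving out 1 sample gave ranges of -0.0229 to 0.141 for Birc5, -0.00978 to 0.134 for Birc2, -0.0516 to 0.0133 for Bak1, -0.00927 to 0.210 for Xiap, -0.261 to 0.119 for Pmaip1 and -0.00364 to 0.0517 for Bbc3. The cause was not tested. Of the 28 named genes, Bok, Mcl1, Casp4, Bcl2l2, Bcl2, Casp8, Birc6, Birc3, Casp2 and Casp8ap2 passed in every setting run at their brightest probe set. Bid passed in those where it was tested, which leaves out the fits without D1 or D2. Fits that left 1 array in a group assume that it varies like the other group. The number of arrays limits every value.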
